A study of Homo sapiens with 14 samples.

Results

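The late step of the response of RS4;11 cells to dexamethasone is the interval between 8 h and 24 h of treatment. It was read from the 5 arrays at 24 h against the 5 arrays at 8 h, which are 10 of the 14 arrays of the series, chosen by their titles and joined in 5 runs by the sample descriptions. RS4;11 is a line grown from the blasts of a B cell precursor acute lymphoblastic leukemia with a rearranged KMT2A gene, and every array came from this 1 line. The cells on the 10 arrays had received 10 nM dexamethasone. The remaining 4 arrays, from runs 1 to 4, came from untreated cells and gave the first step, from untreated to 8 h. No untreated culture was kept for 8 h or 24 h on these arrays, so dexamethasone and time in culture cannot be told apart in either step. The labels do not say that the runs were separate cultures, and if they were not, the p-values describe technical spread alone.

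Dexamethasone is a synthetic glucocorticoid. It binds the glucocorticoid receptor, the transcription factor NR3C1, which moves into the nucleus and switches its target genes on or off within hours, and the products of those genes change further genes later. In lymphoid leukemia the drug is known for stopping cell division and causing cell death, and it is a mainstay of treatment. Levels are given here as log2 values of the deposited table, averaged over the probe sets of a gene, so that a difference of 1 is a 2-fold change. A level on this scale compares arrays for 1 gene and does not compare genes with each other.

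More genes were called in the late step, over 5 runs, than in the first, over 4, and the largest late changes were falls. Of 11963 genes tested, 2277 (19.0%) were higher and 2082 (17.4%) were lower at 24 h than at 8 h, at an adjusted p below 0.05 in the limma fit with the run as a block. With arrays shifted to the same median, 1977 were higher and 2337 lower, so which direction held more genes depended on the normalization. In the first step, 1428 genes (11.9%) were higher and 1815 (15.2%) were lower. The counts of every gene list below are to be read against these shares of all genes. Among the genes called in the late step, 161 fell and 87 rose by at least 1, and 25 fell and 3 rose by at least 2. The first step had the opposite shape, with 145 genes that rose and 73 that fell by at least 1, and 48 that rose and 4 that fell by at least 2. The 24 h arrays lay wholly above the 8 h arrays for 11.5% of all genes and wholly below them for 10.9%. The median late change of all genes was 0.0035.

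Both steps use the arrays at 8 h, with opposite sign, so noise on an 8 h array makes them look opposed. This limit holds for every gene and list below whose steps are both given from all arrays. To set the steps against each other without this shared noise, the first step was taken from runs 1 and 2. The late step was then taken from runs 3, 4 and 5, which have no array in common with them. The 148 genes that were higher by at least 1 at 8 h in runs 1 and 2 had a median late change of 0.50 in the other runs. Of these genes, 74 (50.0%) gained a further 0.5 or more, 69 stayed within 0.5 and 5 (3.38%) gave back 0.5 or more, against 3.9% and 5.32% of all genes that moved up and down by that amount. With the runs exchanged, the first step from runs 3 and 4 and the late step from runs 1, 2 and 5, there were 173 such genes with a median of 0.64, of which 100 gained and 2 gave back 0.5 or more. Genes that had been lower at 8 h moved less. The 108 genes lower by at least 1 in runs 1 and 2 had a median late change of -0.13, and 27 of them lost a further 0.5 or more while 9 regained that much. In the exchanged runs, 67 genes had a median of -0.45, with 30 that lost more and 3 that regained. The early gains were thus extended on arrays that had no part in choosing them, whereas the further loss of the early falls differed between both sets of runs.

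**Figure D1:**
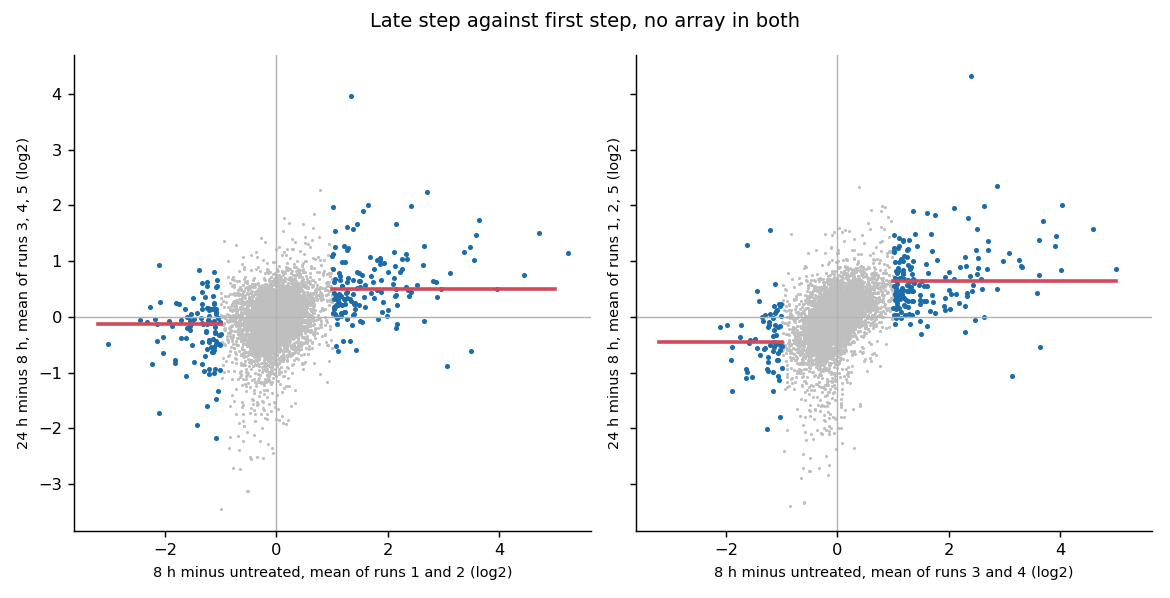
Late step (24 h minus 8 h, vertical axis, log2) against first step (8 h minus untreated, horizontal axis, log2), each point a gene and each panel built so that no array enters both axes. Blue points moved by at least 1 in the first step, and the red lines give the median late change of those on each side, 0.50 and -0.13 in the left panel and 0.64 and -0.45 in the right panel.

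Some genes with a strong early change differed less between 8 h and 24 h. The genes of this kind named here were picked from the gene lists after their values were seen. IRAK3, an inhibitor of signaling by interleukin 1 and Toll-like receptors, had gained 1.49 in the first step and differed by 0.06 in the late step (adjusted p = 0.564 in limma). MYC, the growth-promoting transcription factor, fell by 1.13 and differed by 0.15 afterwards (adjusted p = 0.0582), a difference that passed the threshold in 7 of 18 alternative fits. Likewise BLNK, a scaffold protein of B cell receptor signaling, fell by 2.15 in the first step and IL1B, the cytokine interleukin 1 beta, fell by 2.22, and their late differences were -0.20 and -0.12 (adjusted p = 0.0971 and 0.409). The level of IL1B was low in run 3 both at 8 h, 5.58 against 6.32 to 6.40 in the other runs, and at 24 h, 5.61, and its late difference without replicate 3 was -0.15 (adjusted p = 0.289). NR3C1 itself gained 0.65 in the first step and 0.18 in the late step (adjusted p = 0.00733), and its 8 h arrays, between 12.31 and 12.40, touched the range of the 24 h arrays, 12.40 to 12.59. FKBP5, a chaperone of the receptor and a standard marker of glucocorticoid action, gained 2.58 and then 0.30, a late change just under the threshold (adjusted p = 0.0494) that lost its call in 10 of 18 alternative fits and was -0.0053 within day 1.

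The 15 largest rises and 15 largest falls were taken from genes that met 3 conditions. These were a call, the same direction in all 5 runs and no overlap between the 8 h and 24 h arrays. MORC1, a member of a family of ATPases known from male germ cells, stood far above every other rise. Its level was 4.45, 4.75, 5.34, 4.79 and 4.62 at 8 h in runs 1 to 5 and 9.04, 9.13, 9.12, 8.95 and 8.59 at 24 h. The late change was 4.18 (SE 0.19, adjusted p = 1.19e-08), on top of a first step of 1.90. MXRA7 followed, with 7.14, 7.12, 7.50, 7.31 and 7.49 at 8 h and 9.53, 9.50, 9.56, 9.85 and 9.73 at 24 h, a rise of 2.32 (adjusted p = 7.78e-09). In both genes the groups were separated by more than the spread of either, and the larger part of the total rise came after 8 h. FMO5, a flavin-containing monooxygenase, split its rise more evenly, with 2.76 in the first step and 2.27 in the late step. Its arrays read 6.78, 6.59, 6.89, 6.85 and 6.61 at 8 h and 9.04, 8.93, 8.96, 9.08 and 9.04 at 24 h. IL1R2, the decoy receptor of interleukin 1, gained 1.89 after a first step of 3.84, and CD52, a surface glycoprotein of lymphocytes, gained 1.87 after 1.66. Rises of 1.98 to 1.67 were measured for the olfactory receptor OR7A5, for MTUS1 and CSGALNACT1, for SPAG4, for the histone H2AC6, for SYBU and SH3TC1, for LOC100505915, for the autophagy receptor OPTN and for the mechanosensitive channel PIEZO1. Of the 15 largest falls, 13 were of genes on the lists for replication, nucleotide synthesis and repair of DNA, described next.

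**Figure D2:**
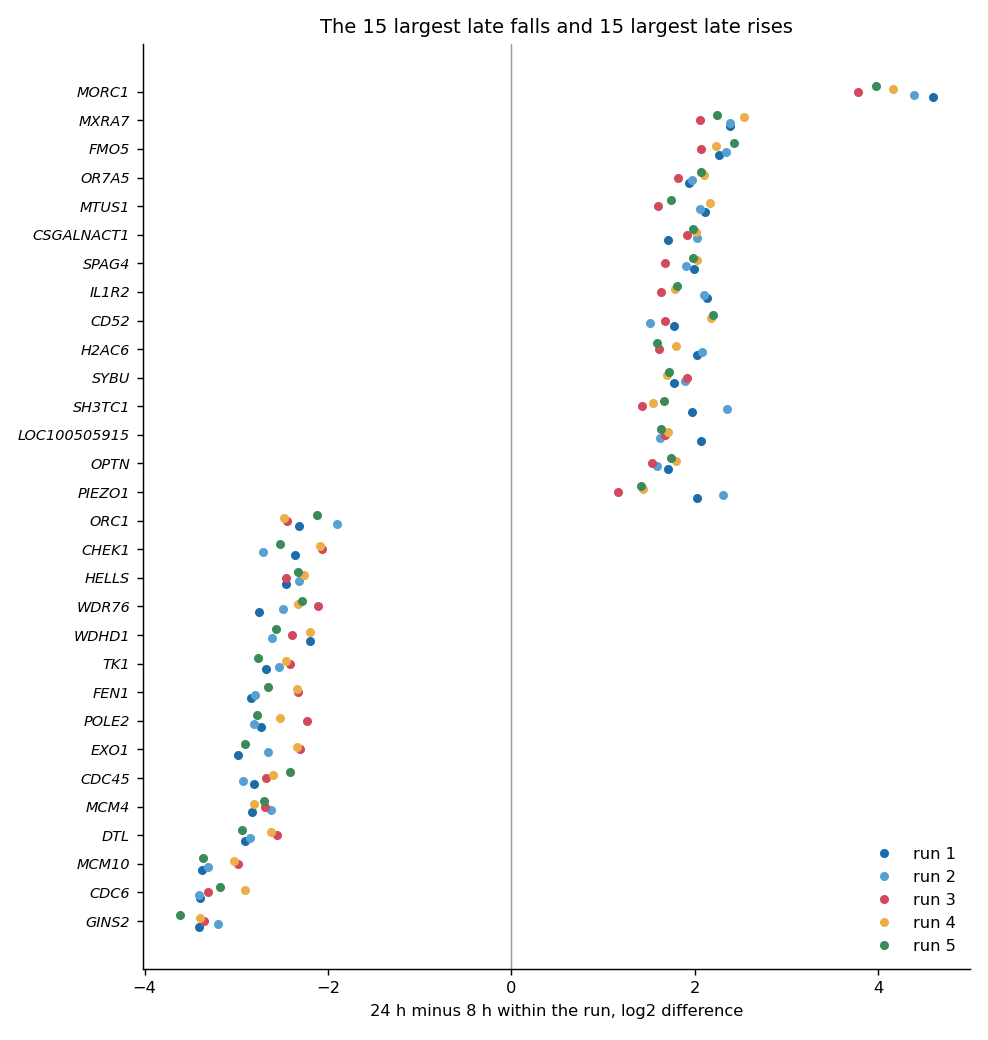
Change from 8 h to 24 h within each run (horizontal axis, log2 difference) for the 15 largest rises and the 15 largest falls among the genes named by the rule, 1 point per run and gene. MORC1 gained between 3.78 and 4.59 in the 5 runs, and GINS2 lost between 3.20 and 3.61.

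Replication of DNA begins when the MCM helicase is loaded at origins by ORC and CDC6 and is activated by CDC45, the GINS complex and MCM10, after which polymerases and the sliding clamp PCNA copy the strands. E2F transcription factors are known to drive many of these genes at the entry to S phase through short promoter motifs. GINS2, the subunit with the largest fall of all genes, read 11.12, 11.17, 10.90 and 10.90 in the untreated cells of runs 1 to 4, 10.08, 10.24, 9.94, 10.16 and 9.92 at 8 h and 6.68, 7.04, 6.59, 6.77 and 6.31 at 24 h. Its late change of -3.39 (SE 0.06, adjusted p = 1.81e-11) was several times the first step of -0.89. CDC6 fell by 3.24 and MCM10 by 3.21 after first steps of -0.56 and -0.55. Of the licensing and helicase list, 28 of 30 measured genes fell and none rose in the late step, with a median of -1.61, while 18 fell and 1 rose in the first step, with a median of -0.41. Of the 30 genes of the fork and its polymerases, 29 fell late with a median of -1.53, and the median of the single runs ran from -1.58 to -1.24. In bulk RNA, fewer cells in S phase and less RNA per cell cannot be told apart.

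The promoters of 3 of these genes are shown because their late falls were among the 15 largest and their sequence held the E2F motifs that were searched. They are the 250 bases before the RefSeq start on GRCh38.p14, written 5′ to 3′ on the strand of the gene, with matches in capitals: GINS2 at chr16:85688955-85689204 on the minus strand, DTL at chr1:212035498-212035747 on the plus strand and HELLS at chr10:94545538-94545787 on the plus strand.
GINS2: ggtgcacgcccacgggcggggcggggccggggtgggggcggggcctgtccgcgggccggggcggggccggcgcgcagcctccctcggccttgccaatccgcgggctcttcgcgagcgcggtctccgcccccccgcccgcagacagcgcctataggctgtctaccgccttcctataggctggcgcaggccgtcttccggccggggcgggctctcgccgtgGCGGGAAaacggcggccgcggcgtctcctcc
DTL: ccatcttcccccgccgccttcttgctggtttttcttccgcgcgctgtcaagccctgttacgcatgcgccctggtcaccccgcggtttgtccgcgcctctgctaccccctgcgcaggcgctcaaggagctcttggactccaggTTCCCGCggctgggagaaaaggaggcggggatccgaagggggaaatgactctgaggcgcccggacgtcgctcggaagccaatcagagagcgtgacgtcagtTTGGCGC
HELLS: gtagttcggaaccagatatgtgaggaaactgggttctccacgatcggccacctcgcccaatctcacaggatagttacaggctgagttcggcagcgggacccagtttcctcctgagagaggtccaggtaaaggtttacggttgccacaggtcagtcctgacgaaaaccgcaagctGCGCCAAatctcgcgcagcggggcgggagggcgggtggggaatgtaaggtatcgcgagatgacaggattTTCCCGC
The search looked at every position for the form TTCCCGC, the form TTGGCGC, the form TTCGCGC and the form TTGCCGC together, on both strands. Matches of different forms may overlap. DTL, whose product is the substrate receptor of a ubiquitin ligase that removes the licensing factor CDT1, fell by 2.77, and HELLS, a chromatin remodeler, fell by 2.36. At least 1 match stood before 33.6% of the 131 genes with a promoter sequence that fell by 1 or more, before 8.20% of the 61 that rose by 1 or more and before 15.9% of the 9563 tested genes with a sequence. The shares were 34.6% for the licensing list, 44.0% for the fork list and 30.4% for recombination and checkpoint genes. The other lists searched had 14.3% for nucleotide synthesis, 26.1% for G2 and mitosis, 37.5% for cholesterol synthesis and 12.1% for genes induced by glucocorticoids. A match is a description of these letters and says nothing on what binds there.

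Several genes of S phase were not called in the first step and fell in the late step. For TK1, thymidine kinase, the arrays read 9.51, 9.67, 9.34, 9.43 and 9.53 at 8 h and 6.84, 7.14, 6.92, 6.98 and 6.77 at 24 h, a fall of 2.57 (SE 0.07) after a first step of -0.17 (adjusted p = 0.137). CCNE1, the cyclin of the passage from G1 to S phase, went from 8.03, 7.98, 8.13, 8.02 and 7.76 at 8 h to 5.85, 5.79, 5.69, 5.46 and 5.89 at 24 h, a fall of 2.25 after a first step of -0.15 (adjusted p = 0.277). In both, the untreated and the 8 h arrays overlapped and the 24 h arrays lay below all others. RRM2, a subunit of ribonucleotide reductase, fell by 2.05, the repressor E2F8 by 2.09 and the exonuclease EXO1 by 2.63, with first steps of 0.15, 0.24 and -0.23 that were not called. In nucleotide synthesis 20 of 23 genes fell late (median -0.66), and in homologous recombination and the DNA damage checkpoint 24 of 26 did (median -0.76), CHEK1, the checkpoint kinase, by 2.35. With each probe set by itself, the median for recombination and checkpoint was -0.34. Of 21 cyclins, kinases and inhibitors of G1, 8 fell and 3 rose, with a median of -0.02 and a mean of -0.33, since the falls were larger than the rises, and the sign of the median turned in 2 alternative fits. Those that fell included CDC25A, the phosphatase that activates CDK2, by 1.74, and CDK4, the partner of the D cyclins, by 1.12, and those that rose were the kinase inhibitors CDKN2D and CDKN1B and the cyclin CCNG2. The E2F list held 8 genes that fell, led by E2F8 and by the pocket protein RBL1, which fell by 1.98, and 2 that rose, TFDP2 and E2F5.

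Most genes of G2 and mitosis fell late, and some of them had risen first. Of 56 measured genes, 40 fell and 1 rose in the late step with a median of -0.43, whereas none had fallen and 13 had risen at 8 h with a median of 0.19. The first gain differed between runs, with a median of 0.30 in runs 1 and 2, both of day 1, and of 0.01 in runs 3 and 4, and the late median of single runs ranged from -0.66 to -0.11. On separate arrays the 0.30 of runs 1 and 2 stood against -0.39 in runs 3, 4 and 5, and the 0.01 of runs 3 and 4 against -0.55 in runs 1, 2 and 5. MKI67, the proliferation marker Ki-67, was picked after its values were seen because it moved in both steps. It read 8.94, 8.98, 9.07 and 9.28 untreated, 9.53, 9.52, 9.50, 9.73 and 9.80 at 8 h and 8.98, 9.04, 9.21, 8.94 and 8.87 at 24 h, for a first step of 0.54 (adjusted p = 0.000792) and a late fall of 0.61 (adjusted p = 0.00011). Its level rose from untreated to 8 h in each of runs 1 to 4. The largest falls of the list were those of CENPM, a centromere protein, by 1.69 and of SPC25, a kinetochore protein, by 1.42, from first steps of -0.03 and 0.12. ESPL1, the protease separase, went from 10.20, 10.07, 9.91, 10.04 and 10.16 at 8 h to 9.31, 9.38, 9.49, 9.27 and 9.08 at 24 h and fell by 0.77 after a rise of 0.36. The kinase MELK, outside the list, fell by 1.02 after a rise of 0.35. The exception was SMC4, a condensin subunit, which rose by 0.47 and by a further 0.20, a late call that ended in 8 of 18 alternative fits, among them those without replicate 1, 2 or 3. Regulators of mitotic entry and exit were among the members that were not called, with late differences of -0.14 for CCNB1, -0.13 for PLK1 and -0.13 for CDC20.

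Many mitotic genes carry the short motif known as CHR, here TTTGAA or TTCGAA on both strands, close to their start. The promoter of MKI67, chr10:128126424-128126673 on the minus strand of GRCh38.p14, is shown because it held the motif at 2 places.
MKI67: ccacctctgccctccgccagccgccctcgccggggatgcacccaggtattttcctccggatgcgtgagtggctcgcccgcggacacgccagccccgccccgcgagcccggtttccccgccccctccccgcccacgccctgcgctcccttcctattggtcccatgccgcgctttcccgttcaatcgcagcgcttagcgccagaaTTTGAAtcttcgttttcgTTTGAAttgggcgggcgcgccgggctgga
The capitals mark the matches, which end 42 and 24 bases before the start. CHR stood in 50.0% of 46 promoters of the list (23 genes) against 10.9% of all tested genes with a sequence, and CCAAT stood in 78.3% of them against 35.6%. The share of CCAAT was 87.5% for cholesterol synthesis, 57.7% for licensing, 52.0% for the fork and 52.2% for recombination and checkpoint genes, whereas CHR stood in 3.85% to 9.52% of the promoters of the lists for replication, nucleotides, repair and cholesterol.

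**Figure D3:**
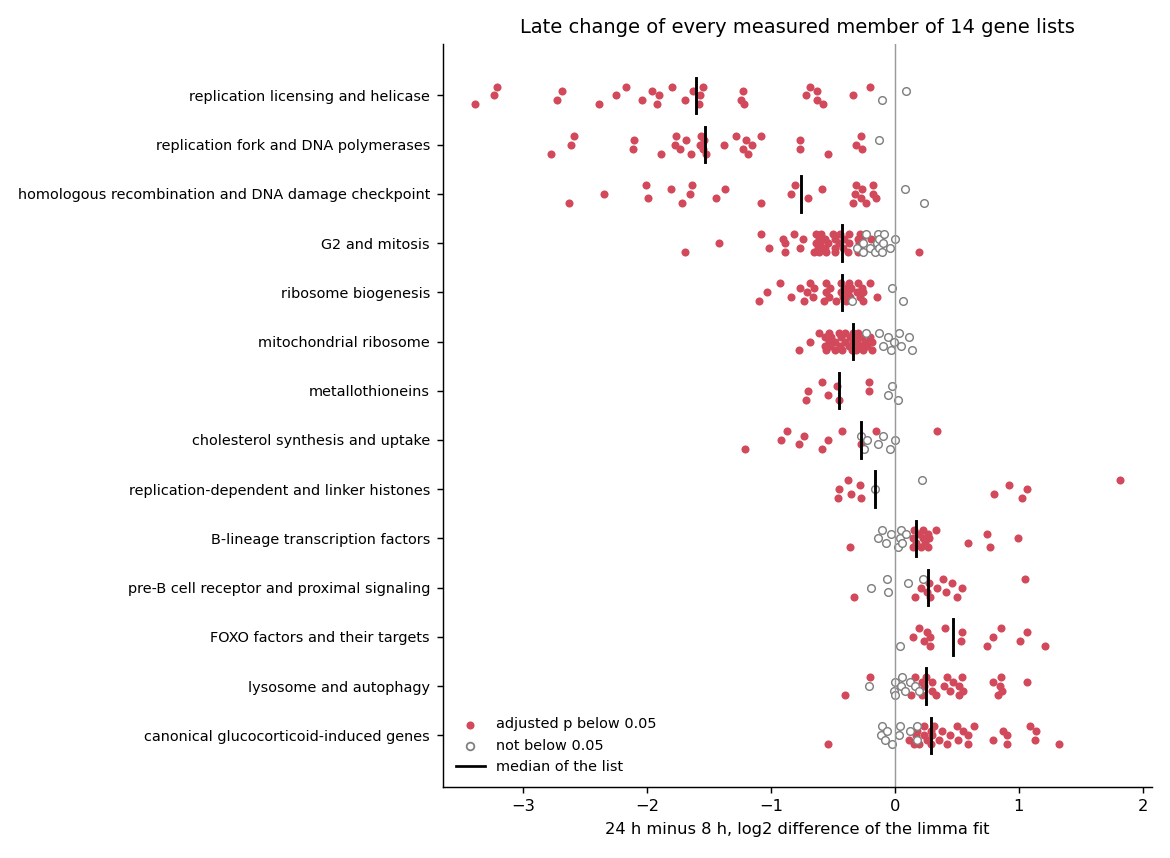
Late change (horizontal axis, log2 difference of the limma fit) of every measured member of 14 gene lists, filled where the adjusted p was below 0.05, with a black bar at the median of each list. The replication lists lie furthest to the left with medians of -1.61 and -1.53, and the histones fall into 6 called members below 0 and 5 at 0.80 or above.

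Genes of ribosome biogenesis were lower in both steps. In ribosome biogenesis 33 of 36 genes fell in each step, with medians of -0.46 first and -0.43 late. BYSL, an assembly factor of the small subunit, read 8.94, 9.03, 9.32 and 9.31 untreated, 7.86, 7.89, 7.68, 7.89 and 7.80 at 8 h and 6.67, 6.72, 6.71, 6.93 and 6.93 at 24 h, so that it lost 1.34 and then a further 1.03 with no overlap between groups. MRTO4 and WDR12, which assemble the large subunit, lost 1.10 and 0.93 late. The ribosomal proteins themselves did not share this, since 1 of 44 fell, none rose and their median was 0.02. Among aminoacyl-tRNA synthetases 15 of 16 fell first and 11 late, with medians of -0.59 and -0.30, and IARS1, which charges isoleucine, fell by 0.83 and then by 0.94. Most genes of the ATF4 pathway and of the unfolded protein response fell first and had no common direction late. In the first step 18 of 31 fell and 2 rose with a median of -0.47, against 15.2% lower and 11.9% higher among all genes. In the late step 6 fell and 6 rose with a median of -0.10, shares near the 17.4% lower and 19.0% higher among all genes. PHGDH, an enzyme of serine synthesis, fell by 0.98 and MTHFD2, an enzyme of folate metabolism, by 0.76, while DNAJB9 and XBP1 of the endoplasmic reticulum rose by 0.38 and 0.49. The 8 h array of run 5 stood above the others for PHGDH, 9.49 against 8.94 to 9.07, and without that run, which is replicate 4, the late change of PHGDH was -0.89.

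Lists of mitochondrial and proteolytic machinery held more genes called lower in the late step than in the first. For the mitochondrial ribosome 36 of 46 genes fell late with a median of -0.34, after 19 that had already fallen in the first step with a median of -0.14. The proteasome went from 3 of 32 genes lower in the first step, median -0.04, to 23 lower in the late step, median -0.26. Oxidative phosphorylation had 30 of 47 genes lower late, median -0.17, against 7 lower first, median -0.03. NDUFV1, a core subunit of complex I, read 10.54, 10.59, 10.31, 10.44 and 10.39 at 8 h and 9.78, 9.80, 9.53, 9.52 and 9.56 at 24 h, a fall of 0.82. No gene of these 3 lists rose late. Chaperones and heat shock genes had 15 of 25 lower late with a median of -0.27, after 10 lower first with a median of -0.16, led by TRAP1, the mitochondrial HSP90, which fell by 0.97. Glycolysis had no common direction across runs, with 6 genes higher and 3 lower of 21 and a median between -0.37 and 0.32 in single runs. Within it PFKFB3, which makes the activator of phosphofructokinase, read 7.53, 7.45, 7.77, 7.85 and 7.67 at 8 h and 9.04, 9.42, 8.73, 8.74 and 8.68 at 24 h and rose by 1.27 (SE 0.14, adjusted p = 2.57e-05), more in runs 1 and 2 than in the others. The glucose transporter SLC2A3 regained 0.60 after a fall of 0.55.

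The genes known to answer glucocorticoids in many cell types mostly went on rising. Of 41 measured, 30 rose and 1 fell in the late step with a median of 0.29, and 24 rose and 5 fell in the first step with a median of 0.58. ZBTB16, a transcription factor of the zinc finger and BTB family, read 4.59, 3.98, 4.53 and 4.18 untreated, 7.85, 7.66, 7.90, 8.03 and 7.91 at 8 h and 9.17, 9.19, 9.14, 9.26 and 9.22 at 24 h. After a first step of 3.55 its late change was 1.33 (SE 0.09, adjusted p = 4.09e-07). PIK3IP1, an inhibitor of PI3 kinase, gained 2.38 and then 1.13, and TXNIP, which binds thioredoxin and restrains glucose uptake, gained 1.26 and then 0.91. BCL2L11, which encodes the death-promoting protein BIM, gained 1.10 and then 0.59 (adjusted p = 1.24e-05), and its 24 h arrays, 6.28, 6.21, 6.61, 6.51 and 5.97, all lay above its 8 h arrays, 5.69, 5.84, 5.94, 5.77 and 5.39. SESN1, a brake on mTOR signaling, had gained 2.87 by 8 h and added 0.42. One member, STOM, fell in both steps, by 0.23 and 0.54. TNFAIP3, the inhibitor of NF-kappaB signaling known as A20, was the reverse case of an early response, with a first step of -0.22 that was not called and a late rise of 1.14 (adjusted p = 1.42e-06). Among Kruppel-like factors 7 of 14 rose and none fell late, KLF2 by 1.22 and KLF7 by 1.32 after first steps of 3.63 and 2.67.

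FOXO factors, which PI3 kinase signaling keeps out of the nucleus, and the genes they are known to drive had the highest median late change of the 43 lists. Of 16 measured, 15 rose and none fell with a median of 0.47, and the median of single runs lay between 0.41 and 0.50. Some genes stand on several lists, so the rises of different lists are not all separate results. FOXO1, which read 9.06, 9.17, 9.11, 9.07 and 9.04 at 8 h and 9.83, 9.93, 9.77, 9.82 and 9.83 at 24 h, rose by 0.75 (SE 0.06, adjusted p = 1.08e-06) after 0.58, with narrow and separate groups. PINK1, the kinase that marks damaged mitochondria, rose by 1.01, and BNIP3L, a receptor for their removal by autophagy, rose by 1.07 after a first step of -0.36 that was not called (adjusted p = 0.0752). Among lysosomal and autophagy genes 23 of 35 rose and 2 fell, with a median of 0.25. PSAP, the precursor of the saposins that help degrade sphingolipids, read 9.62, 9.53, 9.81, 9.71 and 9.79 at 8 h and 10.39, 10.36, 10.66, 10.62 and 10.74 at 24 h and rose by 0.86, and MAP1LC3B and GABARAPL1, which build the autophagosome, rose by 0.85 and 0.86. The list named for brakes on mTOR signaling, whose members need not all act as brakes, had 10 of 17 higher and 2 lower with a median of 0.28. On this list FLCN rose by 0.57 and INPP4B, a phosphatase of the PI3 kinase pathway, by 0.63. EIF4EBP1 of the same list fell by 0.58, after 1.66 in the first step.

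**Figure D4:**
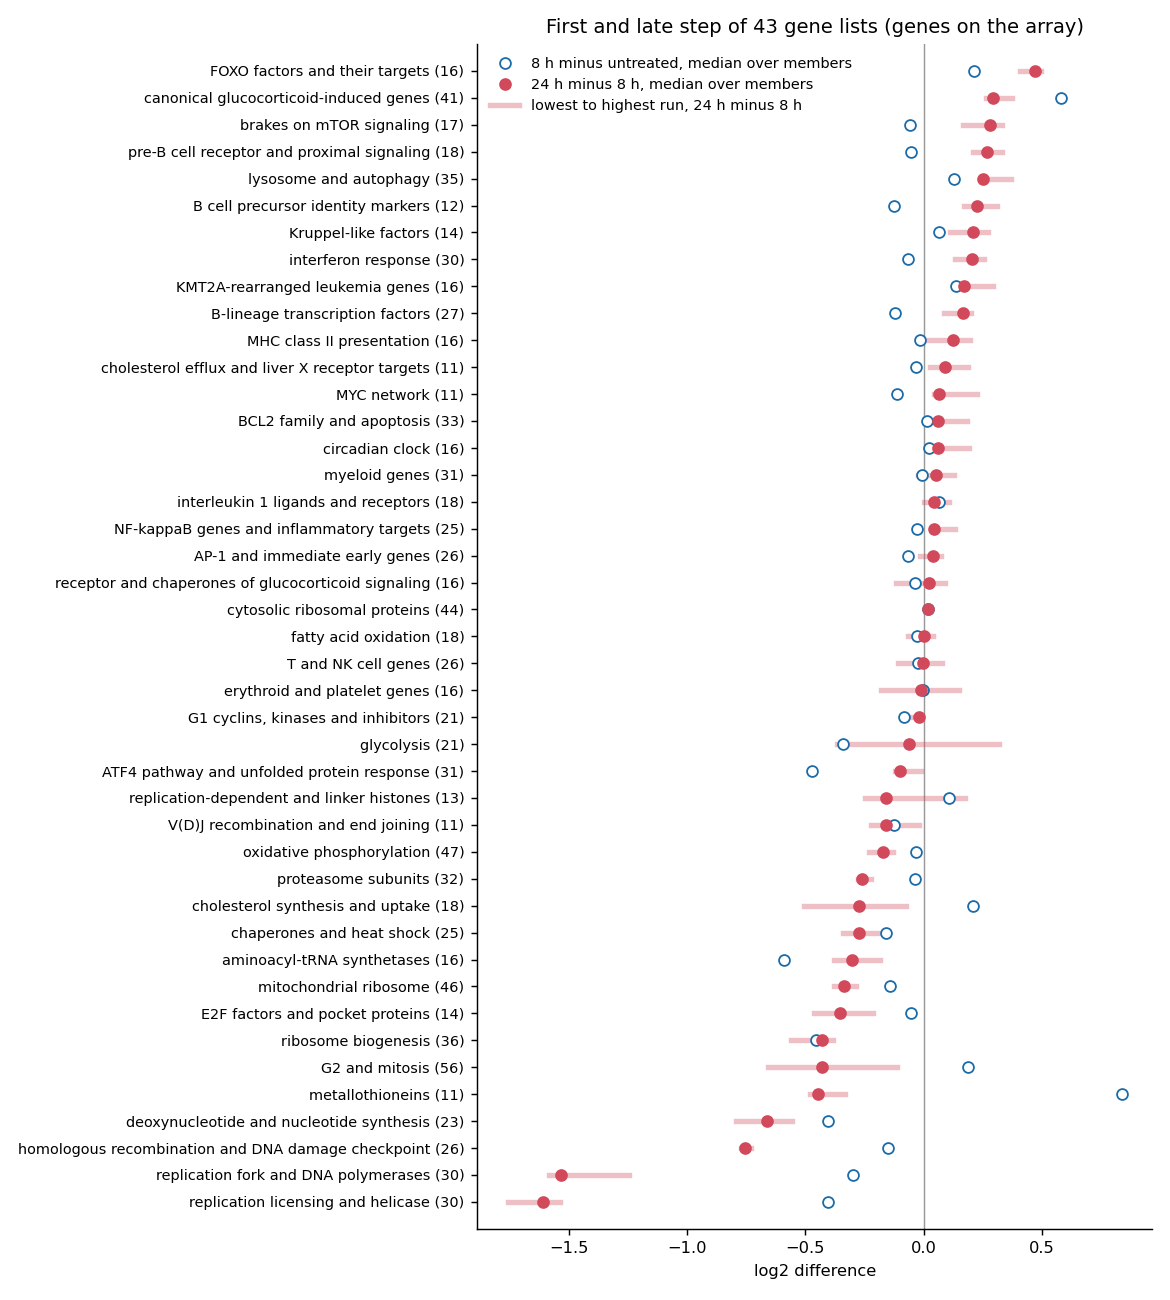
Median change over the members of 43 gene lists (number of genes on the array in parentheses) in the late step (filled) and in the first step (open), log2 difference, with a bar from the lowest to the highest median of the 5 runs in the late step. A list median of the fit is a median of gene means over runs and can lie outside the bar of single runs. Metallothioneins stand at 0.84 in the first step and -0.45 in the late step.

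Among transcription factors of the B lineage more genes rose than fell in the late step. Of 27 transcription factors of the B lineage, 17 rose and 1 fell late with a median of 0.17, after 5 that rose and 11 that fell in the first step with a median of -0.12. BACH2, a repressor that guides early B cell development, read 9.93, 9.92, 9.99 and 9.54 untreated, 8.73, 8.89, 9.63, 9.45 and 9.63 at 8 h and 10.06, 10.11, 10.36, 10.22 and 10.52 at 24 h. It lost 0.66 in the first step and gained 0.99 in the late step (SE 0.13, adjusted p = 6.91e-05), and its arrays at 24 h lay above all others. The first step was -1.11 in runs 1 and 2 and -0.23 in runs 3 and 4, while the late change in runs 3, 4 and 5 was 0.80. For the list as a whole the medians on separate arrays were -0.11 in runs 1 and 2 against 0.20 in runs 3, 4 and 5, and -0.15 in runs 3 and 4 against 0.16 in runs 1, 2 and 5. POU2AF1, the B cell coactivator OCA-B, lost 0.33 and gained 0.59, and ID2, an inhibitor of E proteins, rose by 1.53 and then 0.76. In the pre-B cell receptor and its proximal signaling 12 of 18 genes rose and 1 fell, with a median of 0.27. CD79B, the signaling chain of the receptor, read 9.46, 9.51, 9.38, 9.55 and 9.55 at 8 h and 10.63, 10.69, 10.18, 10.56 and 10.67 at 24 h and rose by 1.05 (SE 0.07, adjusted p = 5e-07) after a first step of -0.10. IGHM, the mu heavy chain, rose by 0.50 and the kinases SYK and LYN by 0.41 and 0.34. In V(D)J recombination and end joining 6 of 11 fell and 2 rose, PRKDC, the catalytic subunit of DNA-dependent protein kinase, falling by 1.03 and the recombinase RAG1 rising by 0.53 with overlapping groups. DNTT, terminal transferase, a marker of lymphoid precursors, fell by 1.47 and then by 0.48.

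A return after an early fall was also seen outside the B lineage. MXI1, a partner of MAX that opposes MYC, read 9.14, 9.25, 8.78 and 8.18 untreated, 7.07, 7.11, 7.87, 7.42 and 8.05 at 8 h and 8.77, 9.02, 8.58, 8.68 and 8.88 at 24 h. It fell by 1.41 and rose by 1.28 (SE 0.20, adjusted p = 0.000276), back into the range of the untreated arrays. MNT, another antagonist of MYC, fell by 0.73 and rose by 0.48. In the MYC network 4 of 11 genes rose late with none lower, against 19.0% higher and 17.4% lower among all genes. MYC itself was not called in the main fit. The mitochondrial serine transporter gene SFXN3 fell by 0.83 and rose by 1.09, NLRP1, a sensor of the inflammasome, fell by 0.43 and rose by 0.78, and ATXN1 fell by 0.79 and rose by 0.78. The steps of MNT, SFXN3, NLRP1 and ATXN1 share the 8 h arrays and are not given on separate arrays. Genes named by their course over both steps were chosen for that course. On separate arrays both steps of MXI1 were -2.10 in runs 1 and 2 against 0.93 in runs 3, 4 and 5, and -0.83 in runs 3 and 4 against 1.48 in runs 1, 2 and 5.

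Early gains that the late step took back in part included those of metallothioneins, small proteins that bind zinc and copper. Of 11 genes of metallothioneins and zinc handling, 7 rose and none fell first with a median of 0.84, and 8 fell and none rose late with a median of -0.45. MT2A read 11.04, 11.14, 10.94 and 11.25 untreated, 12.53, 12.51, 11.67, 12.04 and 12.02 at 8 h and 11.66, 11.60, 11.34, 11.45 and 11.15 at 24 h. It gained 1.11 (adjusted p = 1.55e-05) and lost 0.71 (adjusted p = 0.000169), and the 24 h arrays lay between the other groups except for run 5, which fell within the range of the untreated arrays. The return was seen on separate arrays too, with a first step of 1.43 in runs 1 and 2 against -0.60 in runs 3, 4 and 5, and 0.76 in runs 3 and 4 against -0.88 in runs 1, 2 and 5. Probe sets of metallothioneins can share targets between the near-identical genes, so MT1E, MT1H, MT1F, MT1G and MT1X, which lost 0.45 to 0.70, are not separate measurements. PIR, a nuclear protein of the cupin family, gained 0.65 and lost 1.36, ending below its untreated level in the fit by -0.71 (adjusted p = 0.000754). ATP1B1, a subunit of the sodium pump, gained 0.70 and lost 0.80, and GBP1, a guanylate-binding protein induced by interferon, gained 0.46 and lost 0.88. FAM111A, a protease needed at replication forks, gained 0.31 and lost 0.85. The steps of PIR, ATP1B1, GBP1 and FAM111A share the 8 h arrays and are not given on separate arrays. Genes named by their course over both steps were chosen for that course, so their return is not a separate result.

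**Figure D5:**
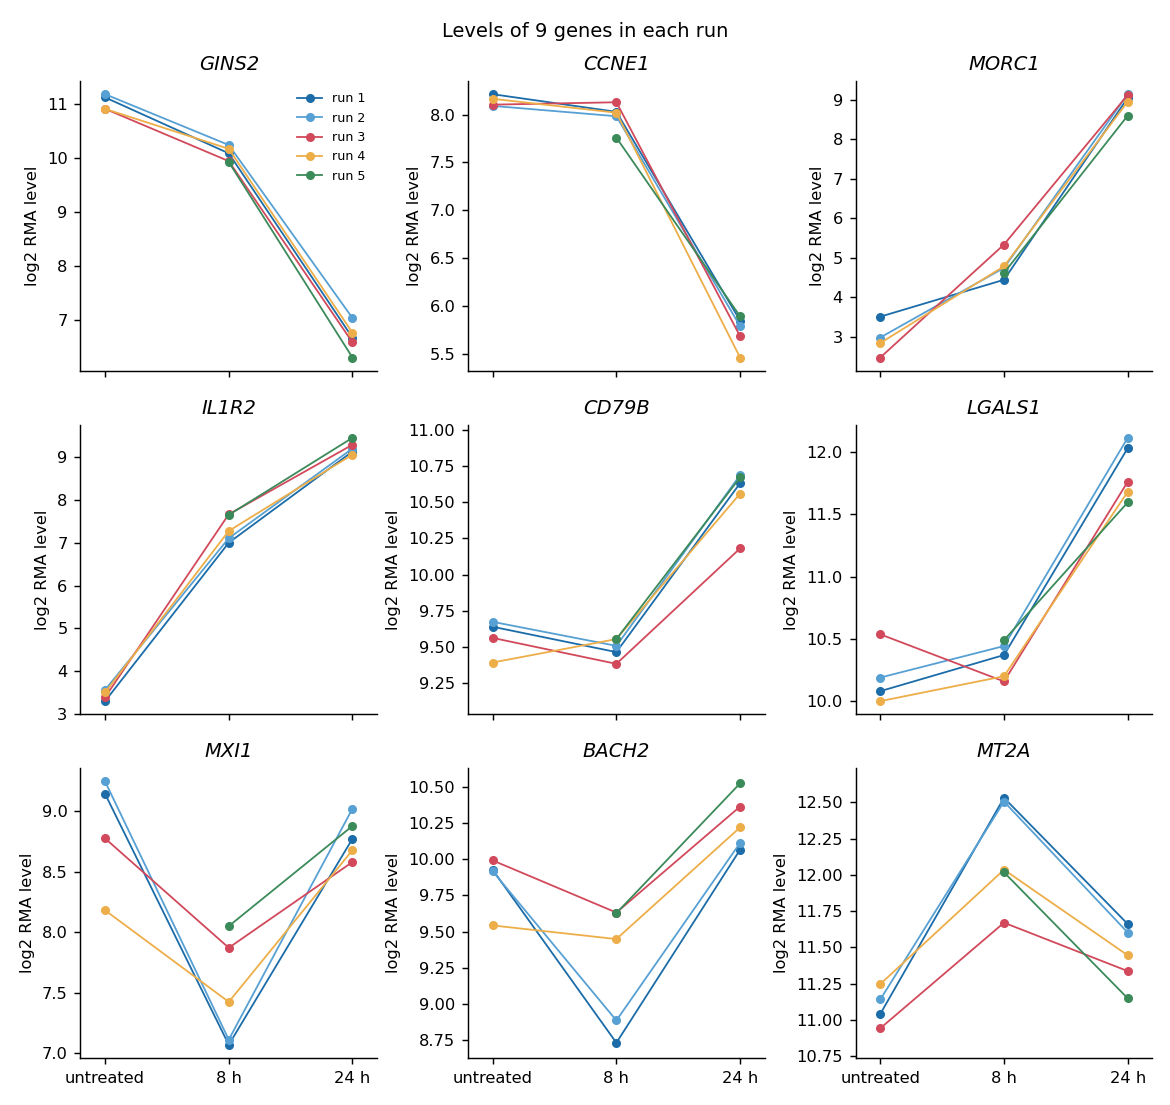
Levels of 9 genes (vertical axes, log2 RMA level, a scale of its own in each panel) in untreated cells and at 8 h and 24 h of dexamethasone (horizontal axis, not to scale in time), 1 line per run and no untreated array in run 5. GINS2 and CCNE1 end low, MORC1 and IL1R2 rise in both steps, CD79B and LGALS1 rise after 8 h, MXI1 and BACH2 fall and return, and MT2A rises and falls back.

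Of the cholesterol genes more fell than rose late, and their first step differed between runs. Of 18 genes of synthesis and uptake, 10 fell and 1 rose late with a median of -0.27, and single runs lay between -0.50 and -0.08. The first step had a median of 0.60 in runs 1 and 2 and of -0.25 in runs 3 and 4. The same runs differed in the difference between the 3′ and 5′ probe sets of ACTB, a sign of RNA quality, which was 1.06 to 1.55 on the 6 arrays of runs 1 and 2 and 2.03 to 2.75 on the 8 others, and its part in the first steps of cholesterol and mitosis genes was not tested. ACAT2, an early enzyme of the pathway, read 10.93, 10.85, 10.57, 10.57 and 10.80 at 8 h and 9.40, 9.39, 9.78, 9.66 and 9.45 at 24 h and fell by 1.21 (adjusted p = 7.94e-05), and FDPS and EBP fell by 0.92 and 0.87. Of 11 genes of cholesterol efflux and liver X receptor targets, 3 rose, 2 fell and 6 were not called, with a median of 0.09. Among all genes 19.0% were higher and 17.4% lower. The 3 risers of the list were the exporter ABCA1 by 1.35, MYLIP, which removes the LDL receptor, by 0.79, and the lysosomal cholesterol carrier NPC2 by 0.74. The lowest member of the list changed by -0.67. The 3 probe sets of ABCA1 disagreed, with late differences from 0.08 to 2.11.

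Further genes were called as higher in the late step and not in the first. LGALS1, galectin-1, a carbohydrate-binding protein abundant in KMT2A-rearranged leukemia, read 10.08, 10.19, 10.54 and 10.00 untreated, 10.37, 10.44, 10.16, 10.20 and 10.49 at 8 h and 12.03, 12.11, 11.76, 11.68 and 11.60 at 24 h. Its late rise of 1.50 (SE 0.11, adjusted p = 7.88e-07) followed a first step of 0.14 (adjusted p = 0.466). S100A6, a calcium-binding protein, rose by 1.17, the histone demethylase KDM7A by 1.26 and PIEZO1 by 1.67, with first steps within 0.25 of 0 that were not called. Histone genes split in the late step, with 5 of 13 higher and 6 lower. H2AC6, H2BC12, H2BC5, H2BC21 and H2AC8 rose by 1.82, 1.06, 1.02, 0.92 and 0.80, while H2AZ1 fell by 0.46, H1-3 by 0.45, H3C2 by 0.38, H2AX by 0.35, H1-4 by 0.28 and H1-5 by 0.27. The call of H3C2 ended without replicate 3 and that of H1-5 without replicate 1, 4 or 5. H2AC6 read 8.38, 8.40, 8.66, 8.70 and 8.94 at 8 h and 10.40, 10.47, 10.26, 10.49 and 10.53 at 24 h. Array protocols that prime from poly(A) read transcripts of replication-dependent histone genes only where they are polyadenylated. Not every member of the list is such a gene, the variant H2AZ1 among them, and whether this bears on the split was not tested.

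Interferon and immune genes moved in part. Of 30 genes of the interferon response 16 rose and 5 fell with a median of 0.20, a share of falls near the 17.4% of all genes. MX1, an antiviral GTPase, read 6.63, 6.53, 7.17, 7.09 and 6.92 at 8 h and 7.99, 7.94, 8.54, 8.79 and 8.60 at 24 h and rose by 1.51 after 1.50, IRF9, a subunit of the interferon-activated factor ISGF3, by 0.75, and BST2 by 0.62, whereas GBP1 and RSAD2 fell. IL1R1, the signaling receptor of interleukin 1, rose by 1.37 as a mean of 2 probe sets that disagreed, 0.12 and 2.62, and of the 18 interleukin 1 genes 4 rose and 1 fell, a share of rises near the 19.0% of all genes. The chemokine CCL5 fell in both steps, by 1.05 and 1.36. Class II presentation had 8 of 16 genes higher and 1 lower, all by less than 0.4. Of 33 genes of the BCL2 family and apoptosis 11 rose and 5 fell with a median of 0.06, against 19.0% higher and 17.4% lower among all genes. The share of falls was thus near that of all genes. CFLAR, an inhibitor of caspase-8, rose by 0.42 and CASP9 by 0.32. BID fell by 0.35 and the survivin gene BIRC5, also on the mitosis list, by 0.61.

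The lists given next had late medians between 0.0026 and 0.17, the highest for genes of KMT2A-rearranged leukemia. Of 16 genes described in KMT2A-rearranged leukemia 8 rose and 1 fell (median 0.17), of 16 circadian clock genes 6 rose and 1 fell (median 0.06), and of 25 NF-kappaB genes 6 rose and 2 fell (median 0.04). Of 26 AP-1 and immediate early genes 5 rose and 1 fell (median 0.04), of 18 genes of fatty acid oxidation 2 rose and 5 fell (median 0.0026), and of 16 genes of the receptor and its chaperones 7 rose and 5 fell (median 0.02). The share of called genes in these lists is to be read against the 19.0% higher and 17.4% lower among all genes.

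Marker lists of the labelled and of other cell types are given by their own levels over the arrays, which do not compare the lists with each other. The mean level of 12 markers of B cell precursors lay between 8.97 and 9.14 on the 8 h arrays and between 9.17 and 9.41 on the 24 h arrays. Over 16 erythroid and platelet genes it was 4.47 to 4.68 and 4.51 to 4.61, over 26 genes of T and NK cells 4.87 to 4.99 and 4.95 to 4.995, and over 31 myeloid genes 4.78 to 4.89 and 4.90 to 4.97. Of the myeloid genes 6 rose, 2 fell and 23 were not called late, a share of rises near the 19.0% of all genes. LILRB2, an inhibitory receptor, had the largest rise with 1.09 after 1.74. MPO, S100A8, S100A9 and CD14, known markers of granulocytes and monocytes that were picked after their values were seen, differed by 0.02 to 0.09 and were not called. As a sign of RNA quality, the 3′ probe set of GAPDH exceeded the 5′ one by 0.54 to 1.02 at 24 h and by 0.51 to 0.96 at 8 h, and that of ACTB by 1.34 to 2.28 and 1.06 to 2.75. Both differences were lower on every array of runs 1 and 2 than on every array of the other runs and overlapped between 8 h and 24 h, and their part in the late changes was not tested.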

How the data were processed

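Total RNA of RS4;11 cells was hybridized to 14 human arrays. Per the labels the arrays followed an Affymetrix protocol, whereas the methods of the study name Agilent for the same array type. The authors left out 1 untreated array after quality control, applied background correction, normalization and summary by RMA in the affy package (versions not given in the sources used here), and deposited the log2 values of 22277 probe sets. RMA gives all arrays one distribution, so a change in total RNA is not visible, and no read depth applies: the number of arrays limits the precision.

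From the deposited values, 19070 probe sets that the platform annotation pairs with exactly 1 gene were averaged to 11963 genes (4310 genes with several probe sets). 1043 probe sets with several genes and 2164 with none were not used for genes. All 14 arrays were fitted with limma 3.58.1 (R 4.3.3), with group and run as terms, and p-values were adjusted by Benjamini-Hochberg over all genes. The labels give the run and day, and runs 1 and 2 share day 1. Same-run arrays at 8 h and 24 h deviated together from their group means in every run (r = 0.371 to 0.537, against a highest r of 0.193 to 0.473 with the arrays of other runs, equal to the own r in run 1), and the labels mark the runs, so the run was kept as a block. Late and first steps were set against each other on separate arrays for the genes taken by their first step. The same was done for the lists of mitosis and of B-lineage transcription factors, and for BACH2, MXI1 and MT2A. For the other genes and lists both steps share the 8 h arrays. Promoters were searched in RefSeq sequences of GRCh38.p14. Tables were handled in Python 3.11.15 with pandas 2.3.3, and figures drawn with matplotlib 3.10.9.

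Gene lists and named genes were chosen with earlier results of these data known. Named were the 15 largest rises and falls among genes called, without overlap and of one direction in 5 runs, up to 8 genes of each course over both steps, up to 5 genes of each list by smallest p, and NR3C1 and FKBP5. Chosen outside this rule, after their values were seen, were BIRC5, BLNK, CCNB1, CCNG2, CD14, CDC20, CDKN1B, CDKN2D, DNTT, E2F5, EIF4EBP1, H1-3, H1-4, H1-5, H2AX, H2BC21, H3C2, IL1B, IRAK3, MKI67, MPO, MT1F, PLK1, RSAD2, S100A8, S100A9, SMC4, STOM and TFDP2.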

Additional observations from a re-analysis of the deposited data

Results flagged for a closer look

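In 325 groups of 5 arrays or runs, 16 held 1 array that stood apart from the other 4 by Dixon's test, where chance alone gives about 1 in 20. At 8 h these were ATP1B1 in run 5 (6.88, others 7.18 to 7.23), IL1B in run 3 (5.58, others 6.32 to 6.40) and PHGDH in run 5 (9.49, others 8.94 to 9.07). At 24 h they were CCNB1 (10.60, others 10.84 to 10.92), CDK4 (9.18, others 9.02 to 9.06), MCM10 (5.59, others 5.96 to 6.01) and NLRP1 (6.96, others 6.61 to 6.69) in run 5, CDC6 (5.48, others 4.94 to 5.09), GBP1 (7.39, others 6.91 to 6.999) and MTUS1 (7.83, others 7.28 to 7.42) in run 4, CD79B (10.18, others 10.56 to 10.69) and NPC2 (11.55, others 11.29 to 11.35) in run 3, and MYLIP in run 1 (9.06, others 8.87 to 8.93). Among list medians of the late step, the B-lineage transcription factors stood apart in run 2 (0.085, others 0.169 to 0.199), the genes of KMT2A-rearranged leukemia in run 4 (0.294, others 0.183 to 0.194) and the BCL2 family in run 1 (0.183, others 0.045 to 0.064).

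Probe sets outside the gene table also moved. In a fit of every probe set, 33.8% of 1043 probe sets paired with several genes and 19.6% of 2108 with no gene listed were called between 8 h and 24 h, against 33.4% of those with exactly 1 gene.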

How the results depend on the processing

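Without the run as a block, 1743 genes were higher and 1644 lower at 24 h than at 8 h, and of the 141 genes named the calls of 6 ended (DNTT, EIF4EBP1, FKBP5, H3C2, SMC4 and TFDP2). The block of title numbers, which cross runs 4 and 5, gave 2241 and 2059. Arrays shifted to the same median gave 1977 higher and 2337 lower late, and cyclic loess gave 2122 and 2221. Under both, more genes were lower than higher, unlike in the main fit. Each probe set by itself gave 3438 higher, from more features tested. Requiring a change of at least 1 left 87 higher and 161 lower late, and 145 higher and 73 lower first. Leaving out each replicate with its run gave 1925 to 2031 higher and 1834 to 1916 lower late, and 1129 to 1305 higher and 1400 to 1686 lower first. The late median of genes that had risen by at least 1 moved from 0.50 to 0.64 with the runs exchanged and to 0.32 for a first step of at least 0.5, and that of genes that had fallen moved to -0.45 with the runs exchanged. The causes were not tested. Of 817 list medians under alternatives, 723 stayed within 1 standard deviation of the medians of single runs. Each probe set by itself moved the recombination and checkpoint genes from -0.76 to -0.34 and the E2F list from -0.36 to -0.16. Of 43 list medians, 9 had the other sign under at least 1 of 19 alternatives, all of them lists with a median between -0.1578 and 0.0392. G1 genes turned to 0.0205 with the brightest probe set per gene and, between -0.0334 and 0.0014 when single replicates were left out, to 0.0014 without replicate 4, which is run 5. Ribosomal proteins turned to -0.0439 with the variance filter, which left 6 genes, and to -0.0092 with arrays shifted to the same median, and AP-1 genes to -0.0074 with the variance filter. For the other lists the value farthest on the other side was -0.1082 for the receptor and its chaperones and -0.1043 for fatty acid oxidation with the variance filter, 0.2391 for glycolysis within day 1, and, without the dimmer genes, 0.7959 for 9 histones, 0.3052 for 5 T and NK cell genes and 0.5051 for 1 erythroid or platelet gene. The histone median was 0.0476 without replicate 4. FKBP5 turned to -0.0053 within day 1, where NR3C1 also lost its call. Day 1 holds 2 runs and the untreated group 4 arrays, which limits the smallest change that can be called.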
